A study of Mus musculus with 25 samples.

Results

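The comparison set retinal cells that carried green fluorescent protein (GFP+) against retinal cells that did not (GFP-), sorted from CD1 mice at embryonic day 18 (E18). GEO's labels call GFP+ cells retinal progenitor cells and GFP- cells post-mitotic retinal cells, and name neither the reporter that carries GFP nor its driver, nor how many animals went into a library. It rests on 4 of the 12 RNA libraries of the series, 2 for each sort, and on the 13403 of 28446 genes that reached 1 FPKM (fragments per kilobase of transcript, scaled to the size of the library) in at least 2 of them. The other 8 RNA libraries are the same sorts at embryonic day 14 (E14) and postnatal day 2 (P2). The remaining 13 libraries are ATAC-seq, which counts transposase insertions in open chromatin, of GFP+ cells only, and 2 of these are from E18. RNA levels at P2 and the E18 ATAC libraries are used below beside the contrast.

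The retina grows from progenitors that divide at its outer surface and leave the cell cycle as ganglion, horizontal, amacrine, cone, rod and bipolar neurons or as Mueller glia. Ganglion cells, horizontal cells and cones come early, rods and bipolar cells late, so that before birth early-born neurons stand beside progenitors and the first rods. Progenitors hold homeobox factors such as Lhx2 and Rax and the effectors of Notch signalling, which keeps cells from differentiating. A cell that leaves the cycle shuts down replication and mitosis and turns on the cytoskeleton, channels and synaptic proteins of a neuron.

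Library totals ran from 395380 to 504845 FPKM. Read depth is unknown, and no counting error is given. The steps between low values put GFP- replicate 1 at 0.64 of the depth of GFP+ replicate 1, with only 5.6% of the ratios within 0.02 (log2) of that step. Replicates resembled each other across the genes tested more (Pearson's r 0.993 for GFP+ and 0.988 for GFP-) than the sorts did (0.863 to 0.868), where genes are not independent points. The labels do not say whether replicates came from separate animals, and the p-values therefore cover nothing but the spread between these 4 libraries. In bulk libraries, fewer cells of a type and less RNA per cell cannot be told apart. Replication-dependent histone genes and the nuclear RNA Malat1 took a larger part of all 4 E18 libraries than of the E14 and P2 libraries, and their values stand beside the results they touch.

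Of the 13403 genes, 3968 (29.6%) were higher and 3982 (29.7%) lower in GFP+ cells (limma on log2(FPKM + 1), Benjamini-Hochberg adjusted p under 0.05). With a change of at least 2-fold required as well, 1104 (8.24%) were higher and 1786 (13.3%) lower. The libraries of the sorts did not overlap for 10750 genes (80.2%). Adding 1 FPKM understates the change of weakly expressed genes on this scale. The 2 directions differed in reach: 604 genes were called lower by at least 4-fold and 31 higher, and of these 31 genes 19 were histone genes. Genes called higher had a median level of 23.9 FPKM in GFP+ cells and 13.3 FPKM in GFP- cells, and genes called lower 5.11 FPKM in GFP+ cells and 13.9 FPKM in GFP- cells. The filter itself admits genes through 1 sort: among 1200 genes that reached 1 FPKM in exactly 2 libraries, these were both GFP+ libraries for 200 genes and both GFP- libraries for 888 genes. A further 662 genes reached it in 1 library and were not tested. Of the genes lower by at least 2-fold, 628 were under 1 FPKM in both GFP+ libraries and so passed through the GFP- libraries alone. The filter fixed the direction of such genes, and the counts below include them. Each list count below stands against these shares of all genes: 29.6% and 29.7%, or 8.24% and 13.3% with at least 2-fold.

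How many genes were called depended on which libraries gave the spread. With the spread of all 12 RNA libraries in place of these 4, 186 genes were higher and 403 lower, none of the replication, mitosis, progenitor or ganglion cell members described below was called, and 54 of 67 histone genes, 9 of 19 amacrine, 6 of 9 cone and 8 of 12 rod markers were. Log2 fold changes are the same in both fits. With each library rescaled to its FPKM outside histone genes, mitochondrial genes and abundant noncoding RNAs, the median log2 fold change of all genes was -0.126 in place of 0.012, and 38.8% of the calls were higher in place of 49.9%.

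**Figure D1:**
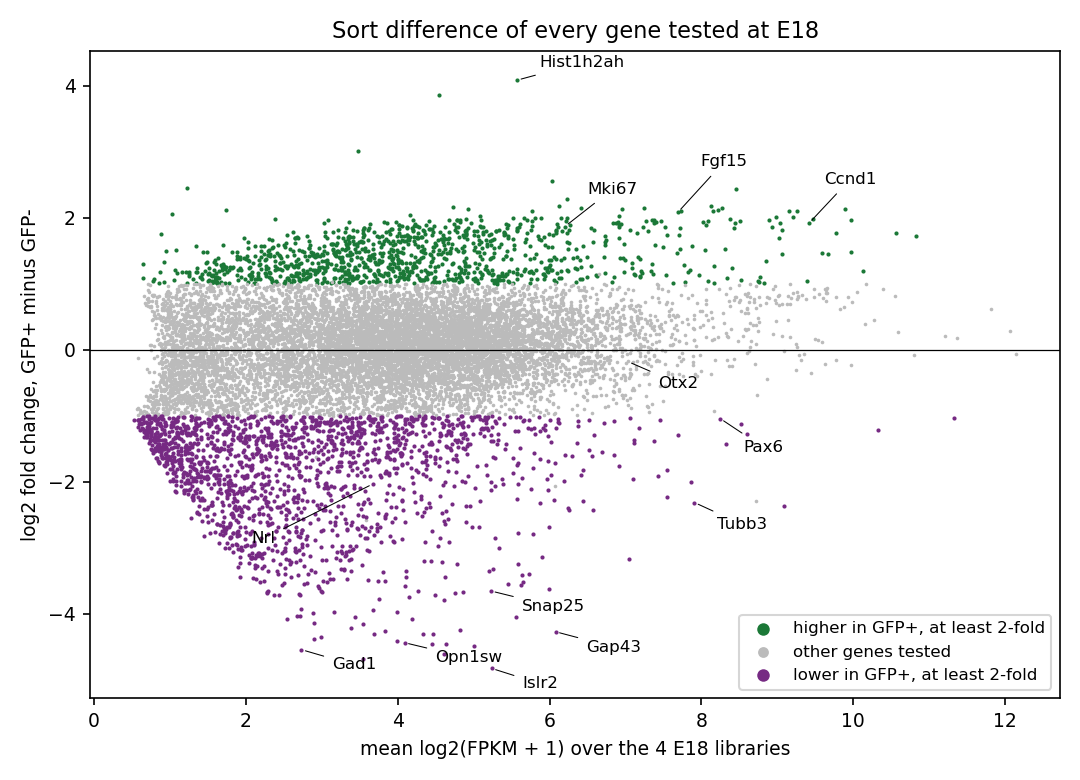
Each point is 1 of the genes tested at E18 (Lars2, listed at 0 in both GFP- libraries, is left out). The x axis is the mean log2(FPKM + 1) over the 4 libraries and the y axis the log2 fold change, GFP+ minus GFP-. Points higher in GFP+ cells (1104 called with at least 2-fold) crowd under 2, and points lower in GFP+ cells (1786) reach beyond -4.

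Progenitor markers and cell cycle genes stood in the GFP- libraries as well. Mki67, the proliferation antigen of cycling cells, had 141 and 137 FPKM in the GFP+ libraries, against 37.9 and 37.2 FPKM in the GFP- libraries. Fgf15, a secreted growth factor of retinal progenitors, had 412 and 436 FPKM in the GFP+ libraries, against 91.3 and 108 FPKM in the GFP- libraries. For 12 progenitor markers the FPKM sums were 4080 and 4470 in GFP+ cells and 1110 and 1290 in GFP- cells, and for single markers the GFP- mean was 23.5% to 45.7% of the GFP+ mean. For 45 mitosis genes that share ran from 21.8% to 45.1%. Both GFP+ libraries lay above both GFP- libraries for each of these genes, and the libraries labelled post-mitotic held all of them. The sorts did not overlap, in either direction, for 80.2% of all genes tested, so such separation is not particular to these genes. The part of cycling cells in these GFP- values was not tested. In the other direction the ganglion cell markers summed to 55.2 and 56.1 FPKM in the GFP+ libraries and to 869 and 1020.0 FPKM in the GFP- libraries, with a median share of 3.98% of the GFP- level.

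Markers of cells from other tissues were at different levels. Lens crystallins and other lens markers summed to at most 0.873 FPKM in GFP+ cells and 1.55 FPKM in GFP- cells, with 8 of 17 at 0 in all 4 libraries. Of 10 microglia markers 3 passed the filter, through the GFP- libraries alone, so their direction is not read. The list summed to 1.78 and 1.55 FPKM in the GFP+ libraries, against 8.61 and 7.41 FPKM in the GFP- libraries. Red cell transcripts were lower in GFP+ cells, with 2 globin genes among the 20 lowest: Hbb-bs, an adult beta-globin gene, had 4.52 and 3.44 FPKM in the GFP+ libraries, against 105 and 90.4 FPKM in the GFP- libraries, and Hba-a1, an alpha-globin gene with a near-identical copy, had 1.55 and 2.28 FPKM in the GFP+ libraries, against 71.3 and 44.2 FPKM in the GFP- libraries. Kdr, a receptor for vascular endothelial growth factor, was higher at 147 and 150.2 FPKM in the GFP+ libraries, against 48.2 and 50.6 FPKM in the GFP- libraries (log2 fold change 1.57 ± 0.09, SE here and for every value after ±; limma, adjusted p = 2.02e-05). Of 12 endothelial markers 3 were tested. Kdr was not alone among them: 2 were higher by at least 2-fold and 1 was not called, with a median log2 fold change of 1.20. The list summed to 167 and 170 FPKM in the GFP+ libraries, against 61.5 and 68.5 FPKM in the GFP- libraries. Pecam1, which defines endothelial cells, had 0.137 and 0.138 FPKM in the GFP+ libraries, against 0.316 and 0.276 FPKM in the GFP- libraries. Cdh5, their cadherin, had 0.0646 and 0.0169 FPKM in the GFP+ libraries, against 0.0467 and 0.0667 FPKM in the GFP- libraries. Both were near 0 in every library. The 7 astrocyte markers summed to 141 and 165 FPKM in the GFP+ libraries, against 47.5 and 39.5 FPKM in the GFP- libraries. Most of that sum was Cxcr4, a chemokine receptor, with 136 and 161 FPKM in the GFP+ libraries, against 43.3 and 35.6 FPKM in the GFP- libraries, while Gfap, the filament protein that defines astrocytes, was under 1 FPKM in every library.

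**Figure D2:**
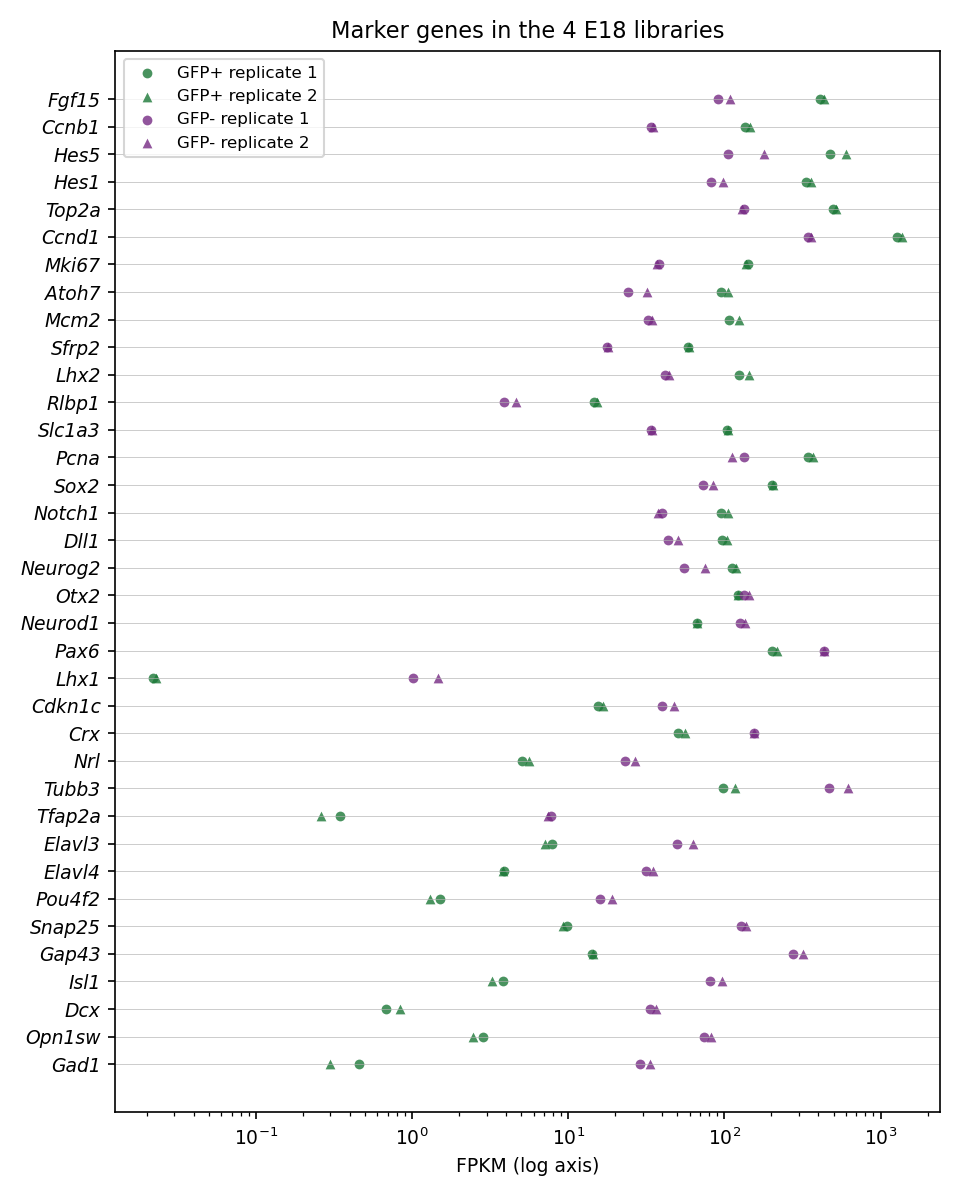
FPKM (log axis) of 36 marker genes in the 4 E18 libraries, ordered by log2 fold change, with green for GFP+ and purple for GFP- cells and a symbol for each replicate. The libraries of a sort lie close together. GFP+ points lie right of GFP- points from Fgf15 down to Neurog2, and left of them from Neurod1 down to Gad1, the gene with the lowest log2 fold change. Otx2 stands where both sorts nearly meet.

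Replication and mitosis genes rose together in GFP+ cells. All 46 DNA replication genes tested were higher, 38 of them by at least 2-fold, with a median log2 fold change of 1.5 against 0.012 over all genes tested. Mcm2, Mcm3, Mcm4 and Mcm5 belong to the helicase that opens DNA at replication origins. Mcm3 had 107 and 109.8 FPKM in the GFP+ libraries, against 31.8 and 33.3 FPKM in the GFP- libraries, a log2 fold change of 1.71 ± 0.09 (limma, adjusted p = 1.57e-05), and Mcm2, Mcm4 and Mcm5 stood at 1.75, 1.57 and 1.66. Cdc6, which loads that helicase, had 35.4 and 35.8 FPKM in the GFP+ libraries, against 8.88 and 9.16 FPKM in the GFP- libraries (1.87 ± 0.10). Gmnn, which stops origins from being used again, was at 1.96 ± 0.10, Uhrf1, which carries DNA methylation through replication, at 1.84 ± 0.12, and Pcna, the sliding clamp of DNA polymerases, at 1.53 ± 0.12. The lowest GFP+ to GFP- ratio in the list was 146% and the highest 407%.

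Of 45 mitosis genes tested 45 were higher by at least 2-fold, with log2 fold changes between 1.14 and 2.17 and a median of 1.80. Ube2c, the ubiquitin-conjugating enzyme of the anaphase-promoting complex, had 138 and 158 FPKM in the GFP+ libraries, against 27.7 and 36.9 FPKM in the GFP- libraries (2.17 ± 0.15; limma, adjusted p = 3.71e-05). Plk1, a kinase of mitotic entry, was at 2.04 ± 0.16, Cdc20, the activator of the anaphase-promoting complex, at 2.00 ± 0.13, and Ccnb1, the mitotic cyclin B1, at 2.00 ± 0.09. Kif11, the motor that separates spindle poles, had 94.0 and 92.3 FPKM in the GFP+ libraries, against 25.1 and 23.3 FPKM in the GFP- libraries, and Top2a, which untangles sister chromatids, had 493 and 519.5 FPKM in the GFP+ libraries, against 133 and 129 FPKM in the GFP- libraries. Birc5, Nusap1, Tpx2 and Ect2, which act on the spindle and in cytokinesis, lay between 1.85 and 1.99. Of the 20 highest genes by the naming rule, Pbk, a mitotic kinase, Fbxo5, an inhibitor of the anaphase-promoting complex, Cdca2 and Melk also act in the cycle, with values from 1.97 to 2.00.

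Promoters of genes that move through the cycle together carry known short motifs: sites of E2F factors in S phase genes and the cell cycle homology region (CHR) in mitotic genes. In RefSeq promoters of GRCm38.p6 (250 bases before to 50 after each start), an E2F motif (TTCCCGC or TTGGCGC, either strand) was present in 52.3% of 44 promoters of DNA replication genes, 20.5% of 39 promoters of mitosis genes, 12.1% of 12586 promoters of genes tested and 6.81% of all 32851 promoters. The CHR (TTTGAA, either strand) was present in 71.8% of mitosis promoters, 11.4% of replication promoters, 11.2% of promoters of genes tested and 17.9% of all promoters. The CCAAT box, a common core promoter motif, was present in 76.9% and 61.4% of mitosis and replication promoters and in 37.8% of promoters of genes tested. A match is a run of letters and not a site shown to be bound. For each motif the promoters of the 2 list members with the smallest p that hold it are shown. Capitals mark E2F motifs in Mcm3, chr1:20820263-20820562 (minus strand), and Cdc6, chr11:98907901-98908200 (plus strand), and the CHR in Mki67, chr7:135716330-135716629 (minus strand), and Kif11, chr19:37376132-37376431 (plus strand).
Mcm3: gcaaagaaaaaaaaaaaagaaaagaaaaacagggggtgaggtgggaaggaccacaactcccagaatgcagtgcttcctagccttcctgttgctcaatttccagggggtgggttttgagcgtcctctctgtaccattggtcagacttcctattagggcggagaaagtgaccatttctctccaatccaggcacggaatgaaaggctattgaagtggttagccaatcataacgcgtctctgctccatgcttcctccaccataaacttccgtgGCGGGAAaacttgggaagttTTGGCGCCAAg
Cdc6: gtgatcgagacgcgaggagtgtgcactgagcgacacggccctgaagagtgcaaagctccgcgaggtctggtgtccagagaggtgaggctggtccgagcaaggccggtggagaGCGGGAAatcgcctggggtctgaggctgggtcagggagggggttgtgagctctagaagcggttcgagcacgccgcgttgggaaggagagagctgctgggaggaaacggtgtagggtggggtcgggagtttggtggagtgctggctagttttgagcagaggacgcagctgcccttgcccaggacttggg
Mki67: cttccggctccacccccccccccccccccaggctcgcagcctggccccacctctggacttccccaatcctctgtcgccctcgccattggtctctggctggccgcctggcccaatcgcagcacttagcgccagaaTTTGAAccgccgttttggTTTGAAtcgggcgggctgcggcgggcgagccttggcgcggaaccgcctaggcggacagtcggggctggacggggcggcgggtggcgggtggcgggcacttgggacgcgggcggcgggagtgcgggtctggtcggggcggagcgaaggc
Kif11: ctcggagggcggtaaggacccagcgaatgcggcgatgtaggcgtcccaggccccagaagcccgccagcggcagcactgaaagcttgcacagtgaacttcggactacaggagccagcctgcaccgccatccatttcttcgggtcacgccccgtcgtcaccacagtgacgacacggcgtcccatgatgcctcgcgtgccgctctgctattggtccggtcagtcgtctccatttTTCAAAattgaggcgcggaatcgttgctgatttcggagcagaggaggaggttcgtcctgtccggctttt
The last E2F motif of Mcm3 is read on both strands, and the one of Cdc6, like the CHR of Kif11, is written as its reverse complement.

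Regulators of the decision to divide or stop did not all move one way. Of 20 tested genes of cell cycle entry and exit, 16 were higher, 12 by at least 2-fold, and 3 were lower, with a median log2 fold change of 1.30. Ccnd1, the D cyclin of retinal progenitors, was among the most abundant progenitor messages, with 1274 and 1378 FPKM in the GFP+ libraries, against 343 and 359 FPKM in the GFP- libraries (1.91 ± 0.13; limma, adjusted p = 3.54e-05). Cdk2, Cdk6 and E2f1, which carry cells into S phase, stood at 1.79, 1.48 and 1.79. The inhibitors split. Cdkn2c, which blocks D cyclin kinases, was higher at 55.3 and 58.3 FPKM in the GFP+ libraries, against 14.1 and 16.1 FPKM in the GFP- libraries (1.85 ± 0.10), and Cdkn1b was higher at 0.70 ± 0.09. Cdkn1c, an inhibitor of cells that leave the cycle, was lower, with 15.6 and 16.8 FPKM in the GFP+ libraries, against 39.6 and 47.6 FPKM in the GFP- libraries (-1.37 ± 0.12; adjusted p = 0.000101). The retinoblastoma family split too: Rbl1 was higher at 1.49 ± 0.09, while Rb1 (-0.42 ± 0.10) and Rbl2 (-0.35 ± 0.12) were slightly lower. Of 24 repair and checkpoint genes 22 were higher, among them Fanca (1.73 ± 0.12) and Brca1 (1.69 ± 0.10), which mend cross-links and broken strands, and Trp53bp1, a partner of p53 at breaks, was lower at -0.73 ± 0.09.

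Replication-dependent histones, whose messages are made in S phase and lack a poly(A) tail, were higher in 67 of 67 members tested, 63 by at least 2-fold (median 1.91). Hist1h3b, a histone H3 gene, had 634 and 722 FPKM in the GFP+ libraries, against 185 and 173 FPKM in the GFP- libraries (1.91 ± 0.12). As a share of all FPKM they took 7.73% and 9.57% in GFP+ libraries and 2.61% and 3.15% in GFP- libraries. Histone genes are near-identical copies, so reads may be split between members and single values are uncertain. At E14 and P2 they took 0.0338% to 0.0572% of each library, and the sort difference of 39 members was larger at E18 than at P2 (limma, interaction, adjusted p under 0.05), of 11 members with a pseudocount of 0.1 and of 16 without E18 GFP+ replicate 2. Malat1 ran from 1706.5 to 3935.0 FPKM in the E18 libraries and from 79.9 to 134.9 FPKM in the other 8. The labels give polyA RNA as the molecule and a total RNA kit for all ages, so the age and the way these libraries were made cannot be told apart for histone genes or for any other difference between E18 and the other ages.

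Transcription factors of progenitors were mostly higher. Of 20 tested, 14 were higher and 2 lower, with a median of 1.10 on the log2 scale. Among the higher ones were Sox8 (1.82 ± 0.12), a relative of Sox9, and Nr2e1 (1.64 ± 0.11), the orphan receptor that keeps neural stem cells dividing. Sox2, which maintains neural progenitors, had 201 and 204 FPKM in the GFP+ libraries, against 73.0 and 84.6 FPKM in the GFP- libraries (1.36 ± 0.10), and Lhx2, a LIM homeobox factor of the eye field, stood at 1.61 ± 0.10. Rax, another eye field factor, was at 1.14 ± 0.17, with GFP- libraries at 92.2 and 131 FPKM. Pax6, which progenitors share with ganglion and amacrine cells, was lower in GFP+ cells, with 203 and 218 FPKM in the GFP+ libraries, against 433 and 437 FPKM in the GFP- libraries (-1.04 ± 0.10; limma, adjusted p = 0.000188). The eye field factors Six3 and Six6 did not pass the test and had log2 values of -0.17 ± 0.12 and 0.03 ± 0.09. The GFP+ libraries lay above the GFP- libraries for Rax and Lhx2, below them for Pax6, and overlapped with them for Six6. Of all genes tested, 80.2% did not overlap.

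Neurogenic factors, which start neuron production in progenitors or act in newborn neurons, were split. Of 20 tested, 11 were higher and 6 lower, beside 29.6% and 29.7% of all genes tested, and nothing is read from the lower count. Atoh7, the proneural factor for ganglion cells, had 94.9 and 106 FPKM in the GFP+ libraries, against 24.2 and 32.2 FPKM in the GFP- libraries (1.81 ± 0.14; limma, adjusted p = 7.03e-05). Foxn4, which primes progenitors for amacrine and horizontal fates, was at 1.85 ± 0.11, Olig2 at 1.55 ± 0.14 and Hes6, an opponent of Hes1, at 1.5 ± 0.15. Neurog2, another proneural factor, had 111 and 118 FPKM in the GFP+ libraries, against 55.2 and 75.6 FPKM in the GFP- libraries (0.82 ± 0.15). Neurod1, which acts later in amacrine cells and photoreceptors, was lower with 66.9 and 66.9 FPKM in the GFP+ libraries, against 126 and 136 FPKM in the GFP- libraries (-0.96 ± 0.09), and Sox4, a factor of neuronal differentiation, was lower at -1.43 ± 0.12. Onecut1 and Onecut2, which act in horizontal and ganglion cells, stood at -1.34 and -1.92. Otx2, which starts the photoreceptor and bipolar lineages, had 122 and 121 FPKM in the GFP+ libraries, against 133 and 144 FPKM in the GFP- libraries. This difference did not pass the test (-0.18 ± 0.09, adjusted p = 0.133), and the same held for Insm1 (0.37 ± 0.14) and for Ptf1a (-0.02 ± 0.12), the amacrine and horizontal fate factor. GFP+ libraries were thus high for Atoh7, Foxn4, Olig2 and Hes6 and low for Neurod1, Sox4 and the Onecut genes, and the groups overlapped for Ptf1a.

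Notch signalling passes from ligands on one cell to receptors on its neighbour and ends in Hes repressors. Of 26 genes tested, 15 were higher and 5 lower, with a median of 0.87. The target Hes1 had 333 and 361 FPKM in the GFP+ libraries, against 82.3 and 97.6 FPKM in the GFP- libraries (1.94 ± 0.12; limma, adjusted p = 2.44e-05), and Hes5 had 475 and 604 FPKM in the GFP+ libraries, against 106 and 178 FPKM in the GFP- libraries (1.95 ± 0.24). Both Hes genes were well apart between the sorts, with the replicates of Hes5 spread more widely. Nrarp, a feedback inhibitor, stood at 1.80 ± 0.10, Lfng, which modifies Notch receptors, at 1.73 ± 0.12, and the receptor Notch1 at 1.35 ± 0.09. The ligands did not move as a group. Dll1 (1.08 ± 0.11), Dll3 (0.79 ± 0.10) and Dll4 (1.30 ± 0.16) were higher in GFP+ cells, whereas Jag1 (-0.97 ± 0.15) and Jag2 were lower. Jag2 had 1.62 and 2.15 FPKM in the GFP+ libraries, against 9.56 and 12.7 FPKM in the GFP- libraries (-2.07 ± 0.18), and Numbl, an inhibitor of Notch, was lower at -0.76 ± 0.14.

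In the hedgehog list 9 of 12 genes tested were higher, 1 was lower and 2 did not pass the test. The lower gene was the ligand Shh, which ganglion cells secrete, with 0.0359 and 0.0381 FPKM in the GFP+ libraries, against 1.04 and 2.12 FPKM in the GFP- libraries (-1.28 ± 0.23). Shh passed the filter through the GFP- libraries alone, so its direction is not read. Its level in GFP+ cells was near 0, and GFP- libraries differed from each other. Among the higher genes were Smo, the signal transducer (1.37 ± 0.10), the co-receptors Gas1 (1.77 ± 0.10) and Cdon (1.05 ± 0.10), and Gli1, a target and effector of the pathway, with 27.9 and 30.4 FPKM in the GFP+ libraries, against 7.34 and 8.91 FPKM in the GFP- libraries (1.73 ± 0.13). Hhip, an inhibitor that the pathway induces, stood at 1.56 ± 0.12.

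Of 15 FGF pathway genes 12 were higher and 1 lower. The ligand Fgf15 stood at 2.08 ± 0.12, and Fgf3 had 9.99 and 10.6 FPKM in the GFP+ libraries, against 2.25 and 2.77 FPKM in the GFP- libraries. The target factors Etv1, Etv4 and Etv5 stood at 1.48, 1.76 and 1.75, and Dusp6, a phosphatase that FGF signalling induces, at 1.16. Fgf13, an intracellular relative that binds sodium channels, was lower at -0.86 ± 0.13. Ligand and targets of the pathway were thus high in the same libraries.

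Among 21 Wnt pathway genes 14 were higher and 4 lower. The receptors Fzd5 (1.63 ± 0.11) and Fzd7 (1.72 ± 0.13) and the secreted modulators Sfrp2 (1.66 ± 0.09) and Dkk3 (1.52 ± 0.11) were higher. Both Apc genes, which act in beta-catenin breakdown and bind microtubules, were lower: Apc had 24.8 and 25.2 FPKM in the GFP+ libraries, against 114 and 109.6 FPKM in the GFP- libraries (-2.11 ± 0.09) and Apc2 5.07 and 6.07 FPKM in the GFP+ libraries, against 80.8 and 101 FPKM in the GFP- libraries (-3.80 ± 0.14). Axin2, a common target of the pathway, was lower by little at -0.37 ± 0.12 (limma, adjusted p = 0.0356), a call lost with 1 library left out. In the Hippo list 11 of 15 were higher, with Yap1 and Wwtr1, the co-activators that drive growth, at 1.55 and 1.52, their target Cyr61 at 1.76 ± 0.10 and Tead2, their DNA-binding partner, at 1.52 ± 0.12.

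Genes of Mueller glia, which share much of their expression with late progenitors, mostly followed the progenitor genes. Of 18 tested, 14 were higher and 3 lower. Slc1a3, the glial glutamate transporter, had 105 and 105 FPKM in the GFP+ libraries, against 34.1 and 34.5 FPKM in the GFP- libraries (1.59 ± 0.08; limma, adjusted p = 1.79e-05), Rlbp1, a retinaldehyde-binding protein, had 14.6 and 15.4 FPKM in the GFP+ libraries, against 3.88 and 4.63 FPKM in the GFP- libraries, and Dapl1 had 252 and 272 FPKM in the GFP+ libraries, against 77.3 and 75 FPKM in the GFP- libraries. Glul, which makes glutamine, stood at 1.13 ± 0.10 and the filaments Nes and Vim at 1.48 and 1.39. Clu, a secreted chaperone, was lower at -1.90 ± 0.21, Gpr37 at -0.86 ± 0.14 and Fabp7 at -0.35 ± 0.09. Aqp4, the water channel of mature glia, had 0.311 and 0.301 FPKM in the GFP+ libraries, against 0.215 and 0.156 FPKM in the GFP- libraries and was under the filter.

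**Figure D3:**
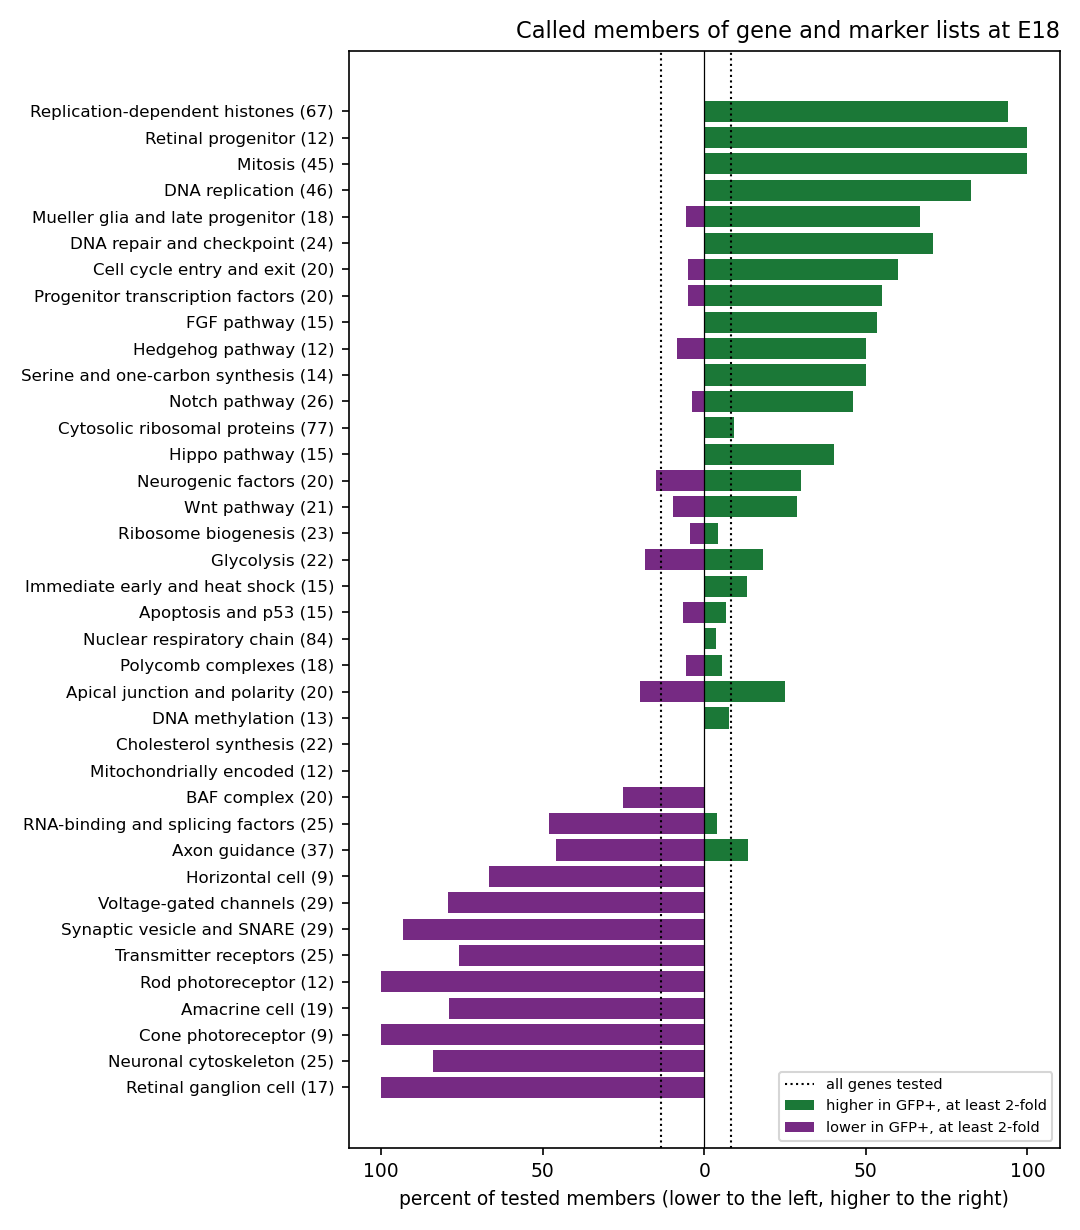
Bars give the percent of tested members (their number in brackets) called higher in GFP+ cells by at least 2-fold, to the right, or lower, to the left, for lists of at least 8 tested members, ordered by median log2 fold change. Dotted lines mark the shares of all genes tested, 8.24% and 13.3%. Cell cycle and progenitor lists reach far right of the line, neuronal lists far left, and cholesterol synthesis and mitochondrially encoded genes show no bar.

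Genes of neurons were lower in GFP+ cells. Of 25 neuronal cytoskeleton genes 23 were lower, 21 by at least 2-fold, with a median of -3.14. Gap43, a growth cone protein, had 14.2 and 14.5 FPKM in the GFP+ libraries, against 276 and 317 FPKM in the GFP- libraries (-4.27 ± 0.10; limma, adjusted p = 3.41e-06), and Dcx, which stabilises microtubules in young neurons, had 0.681 and 0.832 FPKM in the GFP+ libraries, against 33.3 and 36.4 FPKM in the GFP- libraries (-4.35 ± 0.13). Both lay far below in GFP+ libraries, and Dcx passed the filter through the GFP- libraries alone, which fixed its direction. Ina and Nefl, neurofilament subunits, stood at -4.62 ± 0.12 and -4.46 ± 0.11, Mapt, the tau protein, at -4.46 ± 0.11 and Tubb3, the neuronal tubulin, at -2.32 ± 0.16. Tubb3 had 97.4 and 117 FPKM in the GFP+ libraries, against 465 and 615 FPKM in the GFP- libraries. Stmn1, a tubulin-binding protein found in dividing cells as well, did not pass the test (-0.35 ± 0.15), while its neuronal relative Stmn2 stood at -3.57 ± 0.11. Map1a, a microtubule protein of older neurons, was higher, with 7.08 and 7.61 FPKM in the GFP+ libraries, against 4.24 and 5.57 FPKM in the GFP- libraries (0.51 ± 0.16, adjusted p = 0.0275), and this call was lost without GFP+ replicate 1, GFP+ replicate 2 or GFP- replicate 1. The lowest gene of all by the naming rule was Islr2, a membrane protein of growing axons, with 6.39 and 5.78 FPKM in the GFP+ libraries, against 179 and 224 FPKM in the GFP- libraries (-4.83 ± 0.13).

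Synaptic vesicle and SNARE genes were lower in 29 of 29 members tested, 27 by at least 2-fold (median -2.03). Snap25, a SNARE protein of the nerve terminal, had 9.82 and 9.31 FPKM in the GFP+ libraries, against 127 and 138 FPKM in the GFP- libraries (-3.66 ± 0.09; limma, adjusted p = 3.41e-06). Syt4, a vesicle synaptotagmin, stood at -4.42 ± 0.12 and Rab3a, a GTPase of vesicles, at -3.25 ± 0.11. Of 29 voltage-gated channel genes 27 were lower and none higher (median -1.66). Scn3a, a sodium channel of embryonic neurons, had 0.660 and 0.596 FPKM in the GFP+ libraries, against 36.0 and 30.2 FPKM in the GFP- libraries (-4.38 ± 0.14). It passed the filter through the GFP- libraries alone, which fixed its direction. Among transmitter receptors 21 of 25 tested were lower, and 9 more of the list were under the filter. Gria2, the AMPA receptor subunit that keeps calcium out, had 1.73 and 1.80 FPKM in the GFP+ libraries, against 48.6 and 48.3 FPKM in the GFP- libraries (-4.16 ± 0.11), and the GABA receptor subunit Gabra2 stood at -3.71 ± 0.14. The median GFP+ level was 12% of the GFP- level for channel genes and 9.9% for receptor genes.

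Axon guidance genes split. Of 37 tested, 19 were lower and 7 higher, beside 29.7% and 29.6% of all genes tested, and nothing is read from the higher count. Sema3a, a repellent, stood at -3.19 ± 0.13, the receptor Plxna2 at -2.87 ± 0.11, the adhesion molecule L1cam at -3.27 ± 0.12 and the repellent Slit2 at -2.56 ± 0.11. Higher in GFP+ cells were the ephrin receptors Epha3 (1.39 ± 0.10) and Ephb1 (1.13 ± 0.14) and the semaphorins Sema5a and Sema5b, both at 1.18. Sema5b had 13.9 and 14.0 FPKM in the GFP+ libraries, against 5.36 and 5.83 FPKM in the GFP- libraries (limma, adjusted p = 0.000206). The sorts did not overlap for Sema5b, as for 80.2% of all genes tested.

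Markers of ganglion, amacrine and horizontal cells were lower in GFP+ cells. All 17 ganglion cell markers tested were lower by at least 2-fold (median -3.23). Isl1, a LIM homeobox factor of ganglion and amacrine cells, had 3.81 and 3.27 FPKM in the GFP+ libraries, against 80.9 and 97.0 FPKM in the GFP- libraries (-4.30 ± 0.13; limma, adjusted p = 4.18e-06). Pou4f1, a POU factor of ganglion cells, had 2.66 and 1.87 FPKM in the GFP+ libraries, against 59.3 and 63.0 FPKM in the GFP- libraries and Pou4f2 1.52 and 1.30 FPKM in the GFP+ libraries, against 16.0 and 19.2 FPKM in the GFP- libraries. Sncg, gamma-synuclein, stood at -4.49 ± 0.12. The lowest GFP+ share of any ganglion marker was 2.72% of the GFP- level. Among amacrine markers 17 of 19 were lower (median -2.68): Gad1, which makes GABA, was at -4.55 ± 0.15, Calb2, the calcium-binding protein calretinin, at -4.24 ± 0.11, Meis2 at -3.52 ± 0.10 and Tfap2a, an AP-2 factor, had 0.344 and 0.262 FPKM in the GFP+ libraries, against 7.71 and 7.47 FPKM in the GFP- libraries. Of 9 horizontal cell markers 6 were lower. Lhx1, a LIM homeobox factor of horizontal cells, had 0.0219 and 0.0230 FPKM in the GFP+ libraries, against 1.02 and 1.47 FPKM in the GFP- libraries (-1.13 ± 0.17). Tfap2a and Lhx1 passed the filter through the GFP- libraries alone, so their direction is not read. Another amacrine marker, with a GFP+ level at 0.395% of its GFP- level, passed in the same way. The amacrine count of 17 is therefore not read as a result. FPKM of Gad1 are not given here, and its direction is not read either. Ndrg1, the most abundant of the horizontal cell list, did not pass the test (0.14 ± 0.10) and changed sign with quantile scaling or the rescaling.

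Photoreceptor genes were lower too, in 9 of 9 cone and 12 of 12 rod markers tested, while 3 cone and 6 rod markers were under the filter. Aipl1 and Sag are among the rod markers that passed the filter through the GFP- libraries alone. This fixed their direction, so the rod count of 12 is not read as a result. The cone list summed to 38.5 and 34.6 FPKM in the GFP+ libraries, most of it Gngt2 and Gnb3. Cone markers not named here were thus near or under 1 FPKM there, where the filter can fix the direction. The cone count of 9 is not read as a result either. Opn1sw, the short-wave cone opsin, had 2.85 and 2.48 FPKM in the GFP+ libraries, against 74.6 and 82.3 FPKM in the GFP- libraries (-4.44 ± 0.11; limma, adjusted p = 3.41e-06). Gnb3 and Gngt2, subunits of the cone transducin, had 12.7 and 13.9 FPKM in the GFP+ libraries, against 109.8 and 117 FPKM in the GFP- libraries for Gnb3, and 16.6 and 12.2 FPKM in the GFP+ libraries, against 167 and 155 FPKM in the GFP- libraries for Gngt2. Crx, the homeobox factor that turns on photoreceptor genes, had 50.5 and 55.9 FPKM in the GFP+ libraries, against 154 and 155 FPKM in the GFP- libraries (-1.52 ± 0.09). Nrl, the factor that sets rod fate, had 5.04 and 5.60 FPKM in the GFP+ libraries, against 23.2 and 26.6 FPKM in the GFP- libraries (-2.03 ± 0.13), and Nr2e3, its target and partner, stood at -3.19 ± 0.16. Among the few bipolar genes tested, Lhx4 (-1.88 ± 0.15), Cabp5 (-1.93 ± 0.17) and Pcp2 (-1.49 ± 0.17) were lower, and Prkca was not called (0.37 ± 0.18). The whole bipolar list summed to 9.84 and 8.59 FPKM in the GFP+ libraries. Members so low there can pass the filter through the GFP- libraries alone, so the direction of the 3 lower genes is not read.

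Crx binds a short homeobox motif, TAATCC. In the same promoter table it was present, on either strand, in 44.4% of 9 promoters of rod markers and 25% of 8 promoters of cone markers, against 5.51% of promoters of genes tested and 7.06% of all promoters. These are 4 and 2 promoters. For each list the promoters of the 2 called members with the smallest p that hold the motif are shown, with the motif in capitals as its reverse complement. They belong to Aipl1, a chaperone of phosphodiesterase, chr11:72037460-72037759 (minus strand), Sag, the rod arrestin, chr1:87803430-87803729 (plus strand), Gnat2, the cone transducin alpha subunit, chr3:108092816-108093115 (plus strand), and Thrb, a thyroid hormone receptor that sets cone opsin choice, chr14:17660710-17661009 (plus strand).
Aipl1: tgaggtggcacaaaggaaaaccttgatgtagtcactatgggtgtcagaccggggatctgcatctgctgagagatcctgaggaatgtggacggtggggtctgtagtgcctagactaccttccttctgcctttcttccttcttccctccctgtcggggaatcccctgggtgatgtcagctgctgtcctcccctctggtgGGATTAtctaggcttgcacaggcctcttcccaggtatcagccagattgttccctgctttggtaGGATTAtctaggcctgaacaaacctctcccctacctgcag
Sag: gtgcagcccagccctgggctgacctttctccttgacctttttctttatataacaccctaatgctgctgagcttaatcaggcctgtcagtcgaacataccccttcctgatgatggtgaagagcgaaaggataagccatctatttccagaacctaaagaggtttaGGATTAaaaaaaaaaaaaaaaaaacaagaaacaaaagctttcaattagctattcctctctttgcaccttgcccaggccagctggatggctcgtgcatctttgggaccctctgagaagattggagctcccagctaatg
Gnat2: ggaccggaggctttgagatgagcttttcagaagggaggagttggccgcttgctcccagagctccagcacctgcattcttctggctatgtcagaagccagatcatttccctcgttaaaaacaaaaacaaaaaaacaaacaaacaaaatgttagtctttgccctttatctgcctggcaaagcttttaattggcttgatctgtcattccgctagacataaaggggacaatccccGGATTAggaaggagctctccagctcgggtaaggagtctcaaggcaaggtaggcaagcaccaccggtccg
Thrb: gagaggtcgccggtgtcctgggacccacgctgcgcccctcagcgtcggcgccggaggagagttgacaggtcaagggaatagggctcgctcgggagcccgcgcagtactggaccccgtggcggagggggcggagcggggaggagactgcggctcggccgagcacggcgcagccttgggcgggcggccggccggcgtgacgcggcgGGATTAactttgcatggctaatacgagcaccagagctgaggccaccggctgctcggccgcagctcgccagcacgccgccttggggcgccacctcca
Aipl1 had 0.283 and 0.268 FPKM in the GFP+ libraries, against 10.4 and 10.1 FPKM in the GFP- libraries. Sag had 0.252 and 0.627 FPKM in the GFP+ libraries, against 12.6 and 10.8 FPKM in the GFP- libraries. Both passed the filter through the GFP- libraries alone, so their direction is not read. Gnat2 had 1.48 and 1.03 FPKM in the GFP+ libraries, against 25.5 and 29.7 FPKM in the GFP- libraries. Thrb had 2.65 and 2.71 FPKM in the GFP+ libraries, against 19.0 and 19.3 FPKM in the GFP- libraries. The sorts lay apart for Gnat2 and Thrb, as they did for 80.2% of all genes tested.

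In several protein families some members were higher and others lower. In the BAF chromatin remodelling complex, the neuronal subunits Actl6b, Dpf3, Dpf1 and Ss18l1 were lower at -3.66 ± 0.16, -3.04 ± 0.14, -2.17 ± 0.17 and -1.83 ± 0.11, and their progenitor counterparts Actl6a, Phf10 and Ss18 were higher at 0.75 ± 0.09, 0.55 ± 0.09 and 0.60 ± 0.09. Actl6b had 1.46 and 1.03 FPKM in the GFP+ libraries, against 25 and 29.7 FPKM in the GFP- libraries, whereas Actl6a had 108 and 119 FPKM in the GFP+ libraries, against 65.7 and 68.6 FPKM in the GFP- libraries. Actl6b was thus low in the GFP+ libraries, and Actl6a was the more abundant of the pair in all 4. Over the list of 20, 3 were higher and 7 lower, beside 29.6% and 29.7% of all genes tested, and 12 were lower after the rescaling. Nothing is read from the lower count. Of 25 RNA-binding and splicing factors 16 were lower and 4 higher. Elavl3 and Elavl4, RNA-binding proteins of neurons, stood at -2.75 ± 0.13 and -2.81 ± 0.11 and Celf4 at -3.20 ± 0.11. Rbfox1, a neuronal splicing factor, had 1.27 and 1.10 FPKM in the GFP+ libraries, against 18.2 and 26.5 FPKM in the GFP- libraries (-3.40 ± 0.19). Ptbp1, the repressor of neuronal exons in dividing cells, was higher with 243 and 267 FPKM in the GFP+ libraries, against 99.8 and 108 FPKM in the GFP- libraries (1.29 ± 0.10; limma, adjusted p = 6.98e-05), and its relative Ptbp2 was not called (-0.12 ± 0.11).

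Of 20 junction and polarity genes tested 9 were higher and 6 lower, with a list median of 0.14, beside 29.6% and 29.7% of all genes. Ctnna1, the alpha-catenin of epithelial junctions, was higher at 1.07 ± 0.10, and Ctnna2, the neuronal alpha-catenin, lower at -2.37 ± 0.10. Celsr1 and Celsr3, planar polarity cadherins, stood at 1.23 ± 0.15 and -2.55 ± 0.17, and the polarity kinases Prkci and Prkcz at 0.88 ± 0.09 and -2.74 ± 0.18. Celsr1 and Prkci were chosen after their values were seen. Crb1, a polarity protein of the outer limiting membrane, had 45.9 and 45.2 FPKM in the GFP+ libraries, against 18.2 and 17.4 FPKM in the GFP- libraries (1.31 ± 0.09).

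Of 22 glycolysis genes 13 were higher and 7 lower, beside 29.6% and 29.7% of all genes tested, and nothing is read from the lower count. Slc2a1, the general glucose transporter, had 379 and 432 FPKM in the GFP+ libraries, against 131 and 141 FPKM in the GFP- libraries (1.57 ± 0.11; limma, adjusted p = 4.65e-05), and Slc2a3, the transporter of neurons, had 6.60 and 6.36 FPKM in the GFP+ libraries, against 15.2 and 17.4 FPKM in the GFP- libraries (-1.21 ± 0.12). Eno1, the enolase of dividing cells, stood at 1.10 ± 0.15, and Eno2, the neuronal enolase, had 7.90 and 8.97 FPKM in the GFP+ libraries, against 47.0 and 49.0 FPKM in the GFP- libraries (-2.38 ± 0.11). Pfkp, a phosphofructokinase, was lower at -1.61 ± 0.10, and Pgk1, a later step of glycolysis, was higher at 1.06 ± 0.12. In serine and one-carbon synthesis 12 of 14 genes were higher (median 0.95). Gldc, the glycine decarboxylase, had 115 and 126 FPKM in the GFP+ libraries, against 33.6 and 37.2 FPKM in the GFP- libraries (1.74 ± 0.10), Shmt2, the mitochondrial serine hydroxymethyltransferase, stood at 1.63 ± 0.10 and Phgdh, the first enzyme of serine synthesis, at 1.63 ± 0.12. In the respiratory chain 25 of 84 nuclear genes were higher and 2 lower, beside 29.6% and 29.7% of all genes tested, and nothing is read from the higher count. Its 2 highest were Cox4i2, with 109 and 114 FPKM in the GFP+ libraries, against 26.4 and 24.3 FPKM in the GFP- libraries (2.1 ± 0.09), an isoform of cytochrome oxidase that low oxygen induces, and Ndufa4l2, likewise a gene of low oxygen, with 227 and 259 FPKM in the GFP+ libraries, against 55.7 and 62.6 FPKM in the GFP- libraries (2.02 ± 0.11). Both stood 4-fold apart while most of the chain was near even (median 0.21). Without GFP+ replicate 2, 16 of the 84 were higher, and with quantile scaling 15 were lower. None of 12 mitochondrially encoded genes was called, but with quantile scaling mt-Cytb (-0.887) and mt-Nd1 (-0.774) were.

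Genes outside these lists completed the 20 highest. Prss56, a serine protease with a part in eye size, had 51.8 and 58.8 FPKM in the GFP+ libraries, against 10.7 and 12.4 FPKM in the GFP- libraries (2.17 ± 0.11; limma, adjusted p = 1.79e-05). Sapcd2, a regulator of spindle orientation, had 60.5 and 64.6 FPKM in the GFP+ libraries, against 13.3 and 13.9 FPKM in the GFP- libraries (2.12 ± 0.09). Aldh1a3, which makes retinoic acid, had 53.3 and 56.0 FPKM in the GFP+ libraries, against 13.4 and 13.1 FPKM in the GFP- libraries and Metrn, a secreted neurotrophic protein, 303 and 355 FPKM in the GFP+ libraries, against 71.7 and 96.8 FPKM in the GFP- libraries. Smco4 (2.12 ± 0.20) and Fam183b (1.98 ± 0.18) were low in all libraries, with GFP+ levels of 6.41 and 5.51 FPKM and 9.58 and 9.26 FPKM. Among the 20 lowest, Cbln2, a secreted organiser of synapses, had 1.27 and 1.34 FPKM in the GFP+ libraries, against 54.8 and 61.9 FPKM in the GFP- libraries (-4.68 ± 0.12) and Ly6h 1.65 and 1.19 FPKM in the GFP+ libraries, against 36.9 and 52.6 FPKM in the GFP- libraries (-4.22 ± 0.19).

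At transcript starts, the 2 ATAC libraries of E18 GFP+ cells gave another readout of the same labelled cells, with 41299944 and 94687050 counts in the windows used. The central 400 bp around the starts of the 1050 genes higher by at least 2-fold that could be matched held a median of 19.5 and 19.2 CPM, the count scaled to the library's total over all windows. Genes lower by at least 2-fold held 7.97 and 7.91 CPM (1662 genes), other tested genes 20 and 20.1 CPM (9543 genes) and genes under 1 FPKM in all 4 RNA libraries 0.218 and 0.201 CPM (8684 genes). Starts of lower genes thus lay between other tested genes and genes under 1 FPKM, and this held for those under 1 FPKM in both GFP+ libraries, with 3.58 and 3.49 CPM (551 genes). No test was made of these levels, and no ATAC library of GFP- cells was used here.

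Lists of neuronal genes differed at their starts. Replication and mitosis genes held medians of 25.3 and 25.5 CPM and of 24.5 in both libraries. Cytoskeleton genes held 12.6 and 12.9 CPM and synaptic genes 11.6 and 12 CPM. Ganglion and amacrine markers held 4.36 and 3.96 CPM and 4.14 and 4.50 CPM. Cone markers, with 0.823 and 0.750 CPM, and rod markers, with 0.278 and 0.317 CPM, were nearer to the median of genes under 1 FPKM than to that of other tested genes. By gene, Mki67 held 23.8 and 25.4 CPM, against 7.36 and 6.94 CPM for Gap43, 2.74 and 2.54 CPM for Gad1 and 0.363 and 0.454 CPM for Opn1sw.

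**Figure D4:**
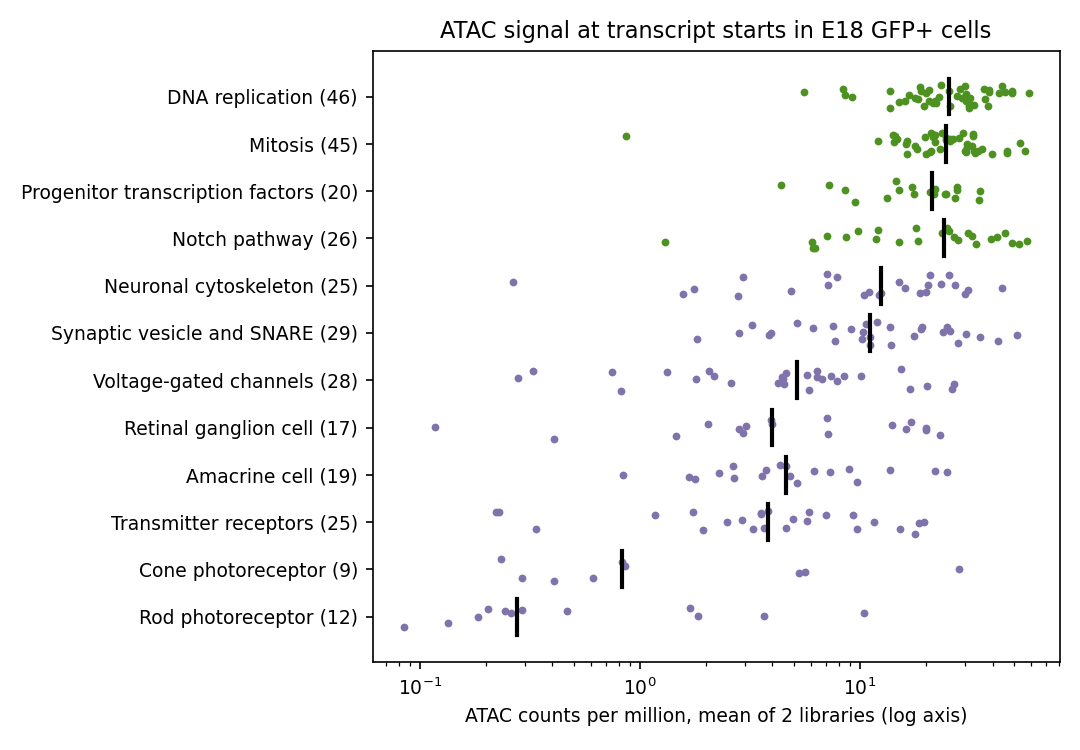
ATAC CPM (log axis) in the central 400 bp at the transcript start of each list member, as the mean of the 2 E18 GFP+ libraries, with a bar at the median and the number of members in brackets. Lists mostly higher in GFP+ RNA (green) have medians from 19.9 CPM (progenitor transcription factors) to 25.5 CPM (DNA replication) in single libraries, where other tested genes have 20 and 20.1 CPM. Neuronal lists (purple) spread downward, and most rod and cone markers lie under 1 CPM.

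The sorts at P2 share no library with those at E18. The P2 calls here come from a fit of the 8 libraries of both ages, so the E18 libraries also entered the spread behind them. Of the 1104 genes higher by at least 2-fold at E18, 1071 had a positive log2 fold change at P2 and 499 were higher there by at least 2-fold, with 3 lower. Of the 1786 lower genes 1725 were negative at P2, 967 were lower by at least 2-fold and 1 was higher. Over all 13403 genes 6826 were positive at P2, 558 were higher by at least 2-fold and 1155 lower. A test of the difference itself (limma on the 8 libraries, E18 sort difference minus P2 sort difference) called 115 of 13874 genes with a positive (0.829%) and 306 with a negative difference (2.21%). Both counts moved with single libraries. The positive count was 350 without P2 GFP- replicate 1, 40 without P2 GFP+ replicate 1 and 32 to 53 without any 1 of the 4 E18 libraries. The negative count was 76 to 138 without any 1 of the E18 libraries, lowest without E18 GFP+ replicate 2, and 78, 182 and 193 without P2 GFP+ replicate 1, P2 GFP+ replicate 2 and P2 GFP- replicate 2. With a pseudocount of 0.1 the counts were 23 positive and 69 negative. The E18 libraries stood apart from the P2 libraries in histone and Malat1 content, so age and library preparation cannot be told apart in the differences given next.

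Ganglion cell genes held the largest part of the negative calls among the marker lists. Of 17 markers, 9 had a more negative sort difference at E18 than at P2, 7 to 13 with any 1 library left out and 2 with a pseudocount of 0.1, and the list medians were -3.23 at E18 and -0.88 at P2. Gap43 at P2 had 8.48 and 7.08 FPKM in the GFP+ libraries and 31.3 and 25.8 FPKM in the GFP- libraries (difference -2.52 ± 0.20; limma, adjusted p = 0.00215). Pou4f2 at P2 had 0.0411 and 0.0825 FPKM in the GFP+ libraries and 0.512 and 0.0473 FPKM in the GFP- libraries (difference -2.70 ± 0.29; adjusted p = 0.00385). Of 17 rod markers in this fit, 5 had a positive difference, 2 to 12 with 1 library left out (12 without P2 GFP- replicate 1) and 0 with a pseudocount of 0.1, with medians of -1.74 at E18 and -3.75 at P2. The filter at E18 admitted 12 rod markers, so the others entered this fit through P2 libraries, and the rod count is not read. None of the 46 replication, 45 mitosis or 12 progenitor marker genes was called. Medians at E18 and P2 were 1.80 and 1.51 for mitosis, 1.496 and 1.069 for replication and 1.885 and 1.298 for progenitor markers. Prss56, the highest gene by the naming rule outside the lists, differed between the ages: P2 levels were 4.15 and 2.96 FPKM in the GFP+ libraries and 1.65 and 2.05 FPKM in the GFP- libraries (difference 1.5 ± 0.25; adjusted p = 0.0202).

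**Figure D5:**
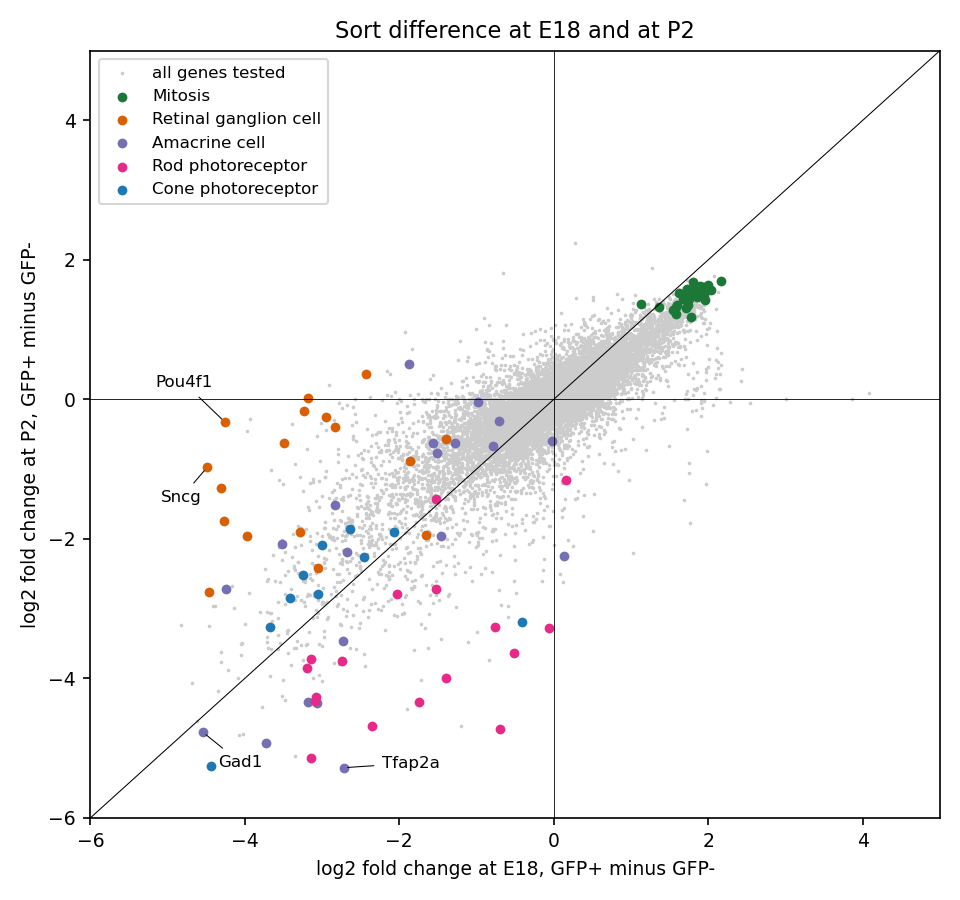
Log2 fold change of GFP+ minus GFP- cells at E18 (x axis) and at P2 (y axis) for each gene in the fit of both ages, with markers coloured by list and the line of equal values drawn. Mitosis genes lie near the line, ganglion cell markers above it near a P2 value of 0 (median -0.88), and rod markers below it (median -3.75 at P2).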

How the data were processed

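RNA values are FPKM deposited by the authors, 1 per gene symbol and library. The unit was inferred from values that are not whole, and the sources used here name neither its program nor its annotation and build. ATAC values are deposited counts in 200 bp windows, 50 to a region, which cover transcript starts on mm9. Per the submitters' processing notes, Bowtie2, HISAT2, Picard 2.10.7, SAMtools 1.5, featureCounts 1.5.3, bedtools 2.26.0, mm9 and mm10 were used, without roles.

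The 4 E18 libraries were fitted with limma 3.58.1 (R 4.3.3) on log2(FPKM + 1) with an intensity trend in the variance, with the filter of 1 FPKM in 2 or more of them. This left 2 residual degrees of freedom, and the Benjamini-Hochberg threshold of 0.05 ran over all genes tested. The interaction and the P2 calls used the 8 libraries of E18 and P2 (4 residual degrees of freedom). The script was tested on simulated data. ATAC CPM are counts over the window total of a library, summed over the 2 central windows, taking the highest start of a symbol. Promoters are from RefSeq (GRCm38.p6). Of the listed symbols 2 were absent from the table.

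The members, gene lists and naming rule were chosen with earlier results of these data known. Named are 38 anchor genes, the 20 highest and 20 lowest called genes with no overlap and a mean of at least 5 FPKM in the higher sort (predicted genes, clones, histone genes and genes at 0 in a sort and above 100 FPKM in the other left out), up to 6 members per list with the smallest p and up to 4 called against the list's direction, the most abundant marker of a list, and 6 genes each way for the interaction. Rax, Six3, Six6, Insm1, Hes6, Ptf1a, Dll3, Dll4, Cdkn1b, Stmn1, Stmn2, Glul, Vim, Aqp4, Thrb, Eno1, Celsr1, Prkci, Ptbp2, Rbfox1, Pecam1, Cdh5, Lars2 and Malat1 were named after their values were seen. Some genes that the rule names are not reported here. Lists are described by counts and medians without a set test. Alternatives were another pseudocount, filter, scaling, spread, prior, replicate block, fold test, and each library left out.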

Additional observations from a re-analysis of the deposited data

Results flagged for a closer look

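The 11 genes here had an E18 sort difference that differed from that at P2 by the test of the difference (limma on 8 libraries, adjusted p under 0.05) and were among the largest each way. Differences are E18 minus P2 on the log2(FPKM + 1) scale.

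Negative differences came from genes whose sorts lay far apart at E18 and close at P2. Pou4f1 had 2.66 and 1.87 FPKM in the GFP+ libraries and 59.3 and 63.0 FPKM in the GFP- libraries of E18, while at P2 it had 0.588 and 0.942 FPKM in the GFP+ libraries and 1.61 and 0.846 FPKM in the GFP- libraries (difference -3.94 ± 0.30, adjusted p = 0.00215). Mstn, the growth factor myostatin, had 0.757 and 0.645 FPKM in the GFP+ libraries and 24.8 and 25.1 FPKM in the GFP- libraries of E18, and no P2 library reached 1 FPKM (-3.65 ± 0.26, limma, adjusted p = 0.00215). Mstn passed the filter through the E18 GFP- libraries alone, which fixed its direction, so that direction is not read. Nell2, a secreted glycoprotein of neurons, stood at -3.52 ± 0.31 (adjusted p = 0.00273), Sncg at -3.51 ± 0.57 (0.0189), Irx2, a homeobox factor, at -3.21 ± 0.30 (0.00286) and Megf10, a receptor of retinal mosaics, at -3.12 ± 0.39 (0.00673). Over 12 alternatives Pou4f1, Nell2 and Megf10 passed in all 12, Mstn and Irx2 in 11, and Sncg in 3, with adjusted p from 0.000633 to 0.369. P2 GFP- replicates of Sncg read 2.64 and 0.262 FPKM.

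Positive differences came from genes under 5 FPKM in every E18 library and higher in the P2 GFP- libraries. Lamp5, a membrane protein of some interneurons, stood at 3.48 ± 0.60 (adjusted p = 0.024), with P2 GFP- libraries at 19.7 and 62.1 FPKM, Cnga1, the rod channel, at 3.22 ± 0.65 (0.0394) and Cartpt, a neuropeptide precursor, at 2.89 ± 0.54 (0.0317). The P2 GFP- replicates differed by more than 2-fold for these 3 genes, which passed in 3, 2 and 4 of 12 alternatives. Arr3, the cone arrestin, had 0.125 and 0.162 FPKM in the GFP+ libraries and 7.53 and 11.7 FPKM in the GFP- libraries of P2 (2.78 ± 0.30, adjusted p = 0.004), and the noncoding Pantr1 had 0.140 and 0.0863 FPKM in the GFP+ libraries and 6.35 and 5.31 FPKM in the GFP- libraries of P2 (2.74 ± 0.23, 0.00247). Both passed in all 12 alternatives. Arr3 and Cnga1 did not pass the filter at E18 and entered this fit through P2 libraries, so their direction is not read. Age and the way the E18 libraries were made cannot be told apart for any of these differences.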

How the results depend on the processing

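Counts of genes higher and lower changed by more than 1.5 times with the spread of all 12 RNA libraries (186 and 403, or 100 and 344 with at least 2-fold) and with limma's treat test against a fold of 2 (443 and 994 for both call rules). With a pseudocount of 5, 624 were higher and 868 lower by at least 2-fold. Leaving out any 1 of the 4 libraries gave 2948 to 4242 genes higher and 3253 to 4129 lower. Replicate numbers are only labels here (correlation of same-numbered deviations 0.129, 2 pairs), and with the number as a replicate block 4539 genes were higher and 4450 lower, with 11 of 20 BAF genes lower and 45 of 84 respiratory chain genes higher. With quantile scaling 20 of 77 cytosolic ribosomal protein genes were higher, against 74 as reported. For the interaction, positive and negative counts were 23 and 69 with a pseudocount of 0.1, 72 positive without a filter, 63 and 136 with the replicate block, and 32 to 350 positive and 76 to 428 negative with 1 of 8 libraries left out.

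Of 318 named genes 270 lost their call with the spread of all 12 libraries and 120 under treat, 0 with either pseudocount, and at most 17 with 1 library left out. Genes that changed sign were not called: Ndrg1 (-0.0128 with quantile scaling and -0.0075 rescaled), Pdgfra (0.18, quantile scaling), mt-Co3 (0.0849 with quantile scaling, -0.414 to 0.13 with 1 library left out), mt-Nd3 (-0.44 without GFP- replicate 2), mt-Cytb (-0.350 to 0.0267 with 1 library left out) and mt-Nd1 (-0.255 to 0.10 with 1 library left out). The causes were not tested. With 1 library left out, the lone library of a sort was assumed to vary like the other sort. RNA depth is unknown, which limits what can be said of genes near 1 FPKM.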

Other observations

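Cytosolic ribosomal protein genes were higher in GFP+ cells in 74 of 77 tested (median 0.80), 7 by at least 2-fold, but in 20 with quantile scaling. Rps4x, a protein of the small ribosomal subunit, had 937 and 992 FPKM in the GFP+ libraries, against 457 and 479 FPKM in the GFP- libraries (1.04 ± 0.13; limma, adjusted p = 0.000465). Of 23 ribosome biogenesis genes 16 were higher and 1 lower. Polr1c, a subunit of RNA polymerases, stood at 0.85 ± 0.09 and Dkc1, the pseudouridine synthase, at 0.84 ± 0.09, while Myc, a transcription factor that drives growth, was lower with 3.91 and 3.11 FPKM in the GFP+ libraries, against 10.5 and 14.1 FPKM in the GFP- libraries (-1.55 ± 0.18). Of 22 cholesterol synthesis genes 6 were higher, 4 lower and none by 2-fold (median 0.03), shares below those of all genes tested (29.6% and 29.7%). Fdft1, squalene synthase, was at -0.39 ± 0.09.

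Of 18 Polycomb genes 8 were higher and 5 lower. These counts and those of the next lists stand beside 29.6% higher and 29.7% lower among all genes tested. Nothing is read from the lower count of the Polycomb list or from either count of the DNA methylation list. Ezh2, the methyltransferase of the complex, stood at 0.62 ± 0.09, Rbbp7 at 1.07 ± 0.09 and Bmi1, a ring finger subunit, at -1.06 ± 0.09 (34.5 and 33.6 FPKM in the GFP+ libraries, against 75.3 and 69.5 FPKM in the GFP- libraries). Of 13 DNA methylation genes 5 were higher, among them the maintenance enzyme Dnmt1 (0.91 ± 0.10), and 5 lower, among them Tet1, Tet2 and Tet3, which oxidise methylcytosine, at -0.70, -0.86 and -0.60. Of 15 immediate early and heat shock genes 9 were higher and 2 lower, with Egr1 at 1.11 ± 0.11 and Fos at 174 and 191 FPKM in the GFP+ libraries, against 108 and 123 FPKM in the GFP- libraries, and Dusp1 lower at -0.86 ± 0.09. Of 15 apoptosis genes 5 were higher and 4 lower, shares near those of all genes, and nothing is read from the list. Bbc3 is a killer protein that p53 induces, and it stood at -1.09 ± 0.18. Lars2, a synthetase of mitochondrial transfer RNA, had 5033 and 5031 FPKM in the GFP+ libraries and was listed at 0 in both GFP- libraries, and no change is read from it.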
